A study of Trichoderma reesei with 8 samples.

Results

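In the wildtype of *Trichoderma reesei*, 45 of the 9143 annotated genes had at least 8-fold lower transcript levels in constant light than in darkness and, in darkness, about the same level with and without the transcription factor gene *ypr2*. They were chosen by measured values. The level was the CPM (a gene's share of the counts of a library, per Mio), averaged over the 2 libraries of a group with 0.5 CPM added. Some group mean had to reach 5 CPM, the wildtype level had to be at least 8-fold lower in light, and the ratio of ∆*ypr2* to wildtype in darkness had to lie between 0.7 and 1.4. A list of 31 further IDs was left out, among them the beta-glucosidase gene *cel1a* and the sugar transporter gene TR_3405. Of these, 13 met the same limits, so that 58 genes met them in all.

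The RNA came from mycelium of strain QM6a, the wildtype, and of ∆*ypr2*, a strain from earlier work in which *ypr2* is deleted. Both were grown in liquid minimal medium with 1% microcrystalline cellulose for 72 h at 28 °C, either in constant light of 1600 lx (LL) or in constant darkness (DD), after precultures kept in darkness. Each of the 4 groups had 2 biological replicates, giving 8 libraries. The sources used here do not say how many independent transformants ∆*ypr2* stands for. The study reported that ∆*ypr2* formed much less biomass than the wildtype in darkness, with no significant difference in light. The dark cultures of the strains thus differed in growth, and what this did to the transcript levels was not tested.

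Light is a signal for filamentous fungi as well as a stress. *T. reesei* perceives it through the photoreceptors BLR1 and BLR2, which act together as a transcription factor complex, and ENV1, and the response reaches conidiation, secondary metabolism and the enzymes that degrade cellulose. YPR2 is a zinc cluster type regulator encoded within the SOR cluster, the gene cluster for the yellow sorbicillinoid pigments.

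Each library held 16.88 to 22.94 Mio counts in all, so that 1 count was worth 0.0436 to 0.0592 CPM. The transcript of *ypr2* (TR_102497) had 566 and 548 counts in wildtype light and 3040 and 2636 in wildtype darkness, against 0 and 0 in ∆*ypr2* in light and 10 and 6 in darkness. Of 7639 genes with a group mean of at least 5 CPM, 285 met the light limit, and 58 of these (20.35%) also met the dark limits. The dark ratio was under 0.7 in 195 of the 285 and over 1.4 in 32. Both ∆*ypr2* dark libraries differed more from each other than the replicates of any other group (chi-square per degree of freedom 36.7, against 6.26 to 12.8). In the second of them 32 of the 45 genes were lower than in the first, with a median ratio of 0.875, where the median over all genes of at least 5 CPM was 1.02. With the first library alone 41 of the 45 genes met the dark limits, with the second alone 31, and 28 met them with either.

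Little is known of these genes by name. The RefSeq table gave a symbol to TR_50323 alone, which is *ooc1*, a *T. reesei* gene named for its expression on cellulose. The annotation in the supplement of the study held 12 others, and 32 had neither. That annotation covers only genes the study had listed for a difference between the strains in these libraries, so the 12 are no random sample of the 45. They are TR_120189, listed among the HFBs (hydrophobins are small amphipathic proteins of the fungal surface), TR_106686, a dioxygenase of the TauD type, TR_46128, an AAA ATPase, TR_103189, a HET protein (a domain known from the recognition of unlike mycelia), and TR_122506, an orphan listed among effector proteins for competition and defence. TR_120030 and TR_110311 are listed as orphans, and TR_106606, TR_47424, TR_57558, TR_111584 and TR_119864 as unknown or conserved hypothetical proteins. Of 13 lists of product names, among them glycoside hydrolases, transporters, peptidases, transcription factors, light perception and conidiation, only oxidoreductases matched a member, TR_106686. With 32 members unnamed, the other 12 lists cannot be read as empty. The transcribed spans were 282 to 4296 bp long with a median of 1425 bp, against 1503.5 bp over all genes.

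In wildtype darkness the 45 genes together made up 7678 and 7374 CPM of the 2 libraries. In wildtype light they made up 487 and 480 CPM. In ∆*ypr2* they reached 7364 and 6259 CPM in darkness and 723 and 752 CPM in light. The sum was thus far lower in light in both strains, and in light it was higher in both ∆*ypr2* libraries than in either wildtype library. In bulk mycelium, fewer cells that express a gene and less RNA in each of them cannot be told apart.

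Single levels differed widely. There were 16 genes over 100 CPM in wildtype darkness, 24 between 10 and 100 CPM and 5 under 10 CPM, with a median of 44.5 CPM. The most abundant transcript was that of TR_119568, a gene with no annotation, at 1865 and 1834 CPM in wildtype darkness, 88.0 and 83.8 CPM in wildtype light, 1785 and 1442 CPM in ∆*ypr2* darkness, and 142 and 138 CPM in ∆*ypr2* light. TR_50894 had 996 and 934 CPM in wildtype darkness, 71.8 and 74.9 CPM in wildtype light, 1165 and 1127 CPM in ∆*ypr2* darkness, and 139 and 139.8 CPM in ∆*ypr2* light. In both genes the light libraries of the 2 strains did not overlap, with ∆*ypr2* higher, and all light libraries were far under all dark ones.

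The hydrophobin-listed TR_120189 came next. Its wildtype libraries had 959.5 and 913 CPM in darkness and 61.8 and 67.3 CPM in light, and its ∆*ypr2* libraries 833 and 728 CPM in darkness and 142 and 153 CPM in light. TR_123456 had 563 and 607 CPM in wildtype darkness, 63.6 and 68.2 CPM in wildtype light, 583 and 564.5 CPM in ∆*ypr2* darkness, and 59.1 and 58.0 CPM in ∆*ypr2* light. Unlike the preceding 3 genes, TR_123456 was lower in both ∆*ypr2* light libraries than in both of the wildtype. The other 12 genes over 100 CPM had wildtype dark means between 103 and 432 CPM and were TR_62166, TR_123236, *ooc1*, TR_122941, TR_56840, TR_68813, TR_54632, TR_56863, TR_80058, TR_111875, TR_106164 and TR_120030. TR_119864, TR_67971, TR_4213 and TR_107850 followed, with means between 73.7 and 96.0 CPM.

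Counts grow with the length of a transcript, so the order between genes was also read per kb of gene span, introns included. On this scale the wildtype dark level of TR_119568 was 1026 CPM per kb, followed by TR_120189 with 805, TR_123236 with 565, TR_50894 with 390 and TR_56863 with 339 CPM per kb. The level of *ooc1* was 331 CPM per kb. TR_104295 was at the other end with 2.61 CPM per kb, and the median of the 45 genes was 38.6 CPM per kb. The short genes *ooc1*, TR_123236 and TR_56863 thus stood higher in the order per kb than in the order by CPM.

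**Figure D1:**
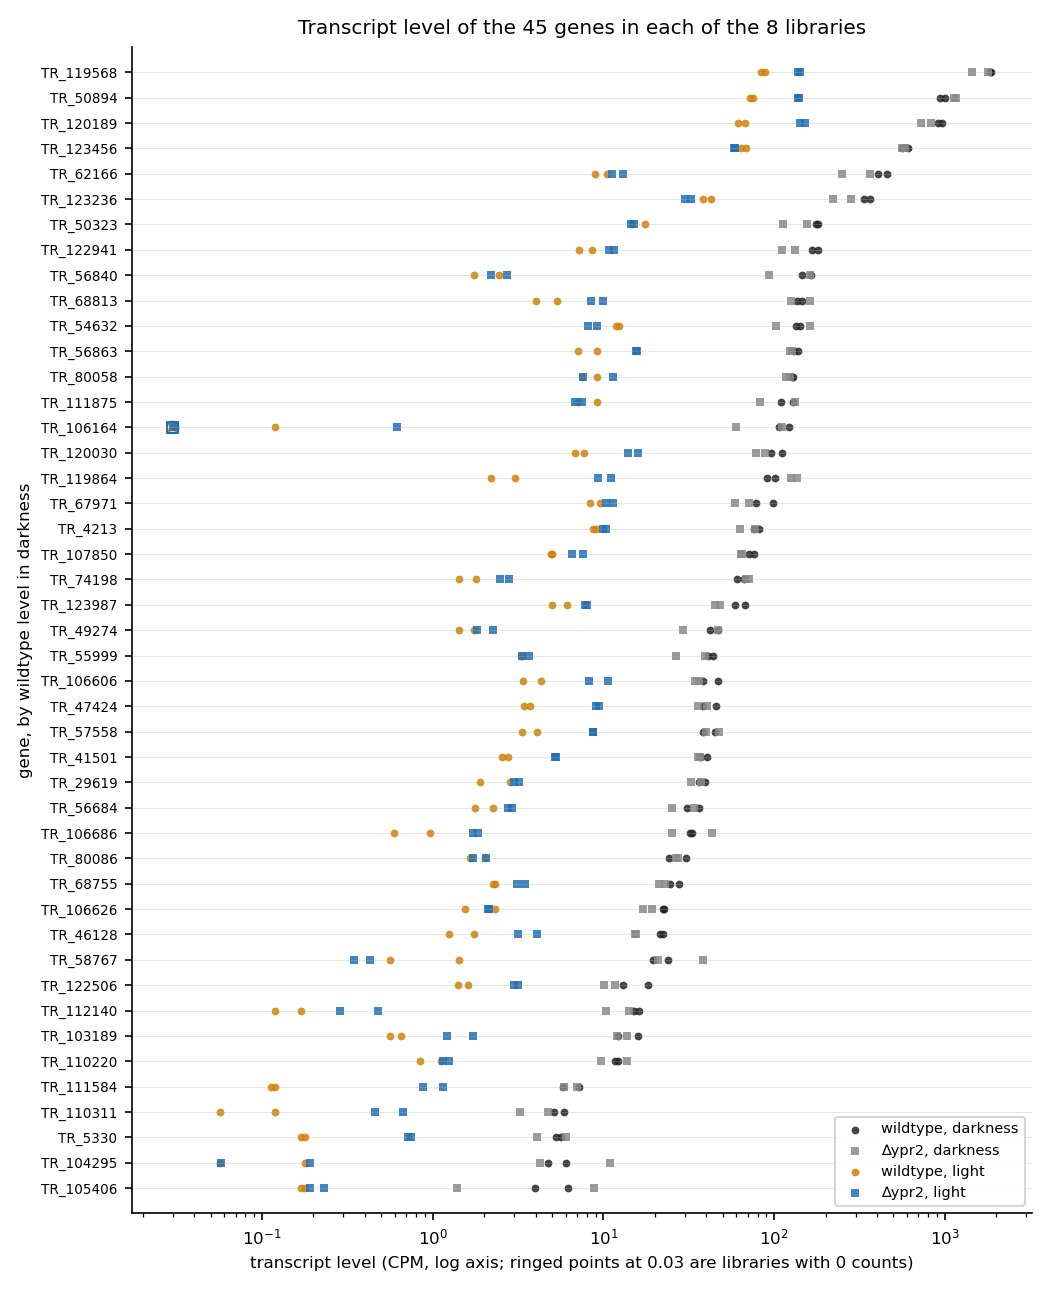
Transcript level of each of the 45 genes (rows, ordered by their mean in wildtype darkness) in each of the 8 libraries, in CPM on a log axis. Points are single libraries, circles for the wildtype and squares for ∆*ypr2*, dark colours for darkness, orange and blue for light. All 45 genes had both dark libraries of each strain to the right of the light libraries of that strain, and in 33 both blue squares lay to the right of both orange circles.

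What the choice fixed is given here without a test. The wildtype level in light was between 0.0515 and 11.6% of that in darkness, with a median of 6.74%. The 8-fold limit for light was met most narrowly by TR_122506 (ratio 0.124), TR_105406 (0.121) and TR_110220 (0.12), and was missed most narrowly by TR_71532 (0.126), TR_73774 (0.126) and TR_119902 (0.128). At the lower dark limit TR_122506 and TR_62166 (both 0.706) and TR_46128 (0.711) stood inside, and TR_55375 (0.698), TR_124065 (0.695) and TR_120504 (0.694) outside. At the upper dark limit TR_104295 (1.37), TR_58767 (1.36) and TR_119864 (1.36) stood inside, and TR_120851 (1.42), TR_30465 (1.44) and TR_124295 (1.46) outside. The lowest of the highest group means inside the limit of 5 CPM were those of TR_105406 (5.1), TR_5330 (5.48) and TR_110311 (5.5). Lowering that limit to 1 CPM added no gene. The 0.5 CPM added to each mean already kept the rarest transcripts from an 8-fold ratio, so this result was largely fixed in advance. Between the limits the ratios in darkness were not spread evenly, since 38 genes were fitted lower in ∆*ypr2* than in the wildtype and 7 higher, with a median log2 difference of -0.22 (0.01 over all genes tested).

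The libraries of ∆*ypr2* in light decided no member, since all 45 genes reached 5 CPM in wildtype darkness, and the first question was whether light lowered the 45 genes without *ypr2* as well. It did for all of them. All 45 passed the filter on low counts and were called lower in light than in darkness in ∆*ypr2* (edgeR, adjusted p under 0.01 and at least 2-fold), where 13.3% of all 8469 genes tested were called lower. In each of the 45 both dark libraries lay above both light libraries, which held for 33.7% of all genes tested. The dark libraries of ∆*ypr2* had been chosen to be about as high as those of the wildtype, so the light level is the new information. No gene was higher in light by edgeR, and 0 were higher at an unadjusted p under 0.05 by edgeR, DESeq2 or limma voom. The log2 fold changes ranged from -8.03 to -1.89 with a median of -3.31, beside 0 over all genes.

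The size of the drop differed between the genes. Light left ∆*ypr2* with a median of 10.6% of its dark level, and 24 of the 45 genes met the 8-fold limit that the wildtype had been chosen by. The largest relative drop was that of TR_106164, a gene with no annotation. It had 122 and 107 CPM in wildtype darkness and 112 and 59.7 CPM in ∆*ypr2* darkness, but 0 and 2 counts in the wildtype light libraries and 0 and 13 counts in those of ∆*ypr2*. Over the summed counts of both libraries, this was 0.408% of the dark level in ∆*ypr2*, with a 95% counting interval of 0.217 to 0.699% by the exact binomial method, which covers counting error only. In the wildtype it was 0.0502%, with an interval of 0.00608 to 0.182%. All ∆*ypr2* counts came from 1 library, and the difference between the strains in light was not called.

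After TR_106164, the smallest ratios of light to darkness in ∆*ypr2*, with 0.5 CPM added to each mean, were those of TR_56840 (0.0231), TR_58767 (0.0293), TR_62166 (0.0415) and TR_74198 (0.0445). Without the addition the order was another, with TR_58767 at 1.30% of its dark level, the rare transcript TR_104295 at 1.63%, TR_56840 at 1.93% and TR_112140 at 3.13%. TR_56840 had 163.5 and 145 CPM in wildtype darkness and 161 and 93.0 CPM in ∆*ypr2* darkness, against 1.75 and 2.43 CPM in wildtype light and 2.19 and 2.72 CPM in ∆*ypr2* light. Its log2 fold change in ∆*ypr2* was -5.76 ± 0.32 (SE), and the light libraries of the 2 strains overlapped. TR_58767 had 19.4 and 24.0 CPM in wildtype darkness and 38.5 and 21.0 CPM in ∆*ypr2* darkness, against 0.564 and 1.42 CPM in wildtype light and 0.345 and 0.429 CPM in ∆*ypr2* light. It was the gene with the lowest fitted difference between the strains in light, -1.33 ± 0.91 on the log2 scale, which was not called (adjusted p = 0.51).

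At the other end, TR_122506, the effector-listed orphan, kept the largest part of its dark level in ∆*ypr2*, 28.4% (ratio 0.315 with 0.5 CPM added). It had 18.2 and 13.02 CPM in wildtype darkness and 11.7 and 10.03 CPM in ∆*ypr2* darkness, against 1.41 and 1.60 CPM in wildtype light and 3.16 and 3.00 CPM in ∆*ypr2* light. Here the light libraries of the strains stood apart, and the drop in ∆*ypr2* was -1.89 ± 0.20 on the log2 scale (adjusted p = 3.1e-05). TR_106606 (0.278), TR_46128 (0.259), TR_47424 (0.252) and TR_110311 (0.237) had the next highest ratios with 0.5 CPM added. Without the addition TR_110311 kept 14.1%, less than TR_57558 (19.8%), TR_120189 (18.9%) and others.

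TR_105406, the shortest gene of the group, had the weakest call. Its wildtype libraries had 3.95 and 6.21 CPM in darkness and 0.169 and 0.178 CPM in light, and its ∆*ypr2* libraries 8.80 and 1.395 CPM in darkness and 0.230 and 0.191 CPM in light. The ∆*ypr2* dark libraries lay on both sides of those of the wildtype and their mean, not their agreement, placed it within the dark limits. Its call in ∆*ypr2* (adjusted p = 0.0045) was lost without either ∆*ypr2* light library, with limma voom and with only the 4 ∆*ypr2* libraries in the fit. The largest adjusted p among the other 44 genes was 1.1e-04.

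*ooc1* had 175 and 182 CPM in wildtype darkness, 17.5 and 14.6 CPM in wildtype light, 156.5 and 112 CPM in ∆*ypr2* darkness, and 15.1 and 14.5 CPM in ∆*ypr2* light. Its log2 fold change by light in ∆*ypr2* was -3.26 ± 0.17 (adjusted p = 2.3e-07). In light the libraries of both strains overlapped, and the fitted difference of -0.14 ± 0.19 was within its error. The TauD-type gene TR_106686 had 31.9 and 33.0 CPM in wildtype darkness, 0.959 and 0.592 CPM in wildtype light, 43.4 and 25.3 CPM in ∆*ypr2* darkness, and 1.84 and 1.72 CPM in ∆*ypr2* light. It was higher in both ∆*ypr2* light libraries, and the difference of 1.16 ± 0.58 was not called (adjusted p = 0.35).

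The second question was whether the genes, alike in darkness by choice, were also alike in light. A difference in light was called for some of them, and the likeness in darkness had been set by the choice. The choice for a low level in wildtype light favours a higher level in ∆*ypr2* light. The counts and p values of this comparison are therefore given as a description and no independent test. In light 7 of the 45 genes (15.56%) were called higher in ∆*ypr2* than in the wildtype, where 0.378% of all genes tested were called higher, and 0 were called lower, where 0.142% were. Without the 2-fold limit 11 of the 45 passed an adjusted p under 0.01 as higher, beside 1.17% of all genes. In darkness, within the limits of the choice, 8 were lower and 1 higher at that adjusted p, beside 25.5% and 26.9% of all genes, which is given as a description. At an unadjusted p under 0.05, 22 were higher in light in ∆*ypr2* (8.54% of all genes tested) and 2 lower (8.8% of all genes tested) by edgeR. DESeq2 called 8 higher and 0 lower, limma voom 4 higher and 0 lower. Both ∆*ypr2* libraries lay above both wildtype libraries in 33 genes (28.3% of all genes tested) and below both in 4 (24.5% of all genes tested), which were TR_123456, TR_123236, TR_54632 and TR_58767. The fitted difference was above 0 in 39 genes and had a median of 0.50 on the log2 scale, beside 0 over all genes.

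The wildtype light libraries had themselves been used to choose low genes. After the data were seen, the choice was therefore repeated on 1 replicate of each group. The ratio of ∆*ypr2* to wildtype in light was then read against the wildtype library of the other replicate. This took out the noise of the library used to choose, but the genes were again chosen for a low wildtype light level. It is no independent test of a difference between the strains. Choosing on the first replicate gave 54 genes, 38 of them members, with a median ratio of 1.37 and 46 genes above 1. Choosing on the second gave 44 genes, 31 of them members, with a median of 1.41 and 37 above 1. For the 45 genes read on both replicates the median was 1.39, and 1.01 over all genes of at least 5 CPM.

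The call was carried by few genes at a time. It fell to 3 genes without the first wildtype light library, to 2 without the second, to 2 without the second ∆*ypr2* light library and to 4 with limma voom. TR_119864 and TR_120189 were called in each of the 17 alternatives tried.

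TR_119864, an unknown protein, had the clearest difference. Its wildtype libraries had 102 and 90.5 CPM in darkness and 3.05 and 2.19 CPM in light, its ∆*ypr2* libraries 125 and 136 CPM in darkness and 9.32 and 11.1 CPM in light. The difference in light was 1.94 ± 0.16 on the log2 scale (adjusted p = 5.0e-04). It stood near the upper dark limit, and in darkness too both ∆*ypr2* libraries were above both of the wildtype. The hydrophobin-listed TR_120189, with the values given above, was lower in both ∆*ypr2* libraries in darkness but higher in both in light, by 1.17 ± 0.09 (adjusted p = 2.1e-04).

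TR_111584, an unknown protein, had the largest fitted difference in light, 3.02 ± 0.50, on few counts. It was at 7.18 and 5.77 CPM in wildtype darkness and 5.88 and 6.97 CPM in ∆*ypr2* darkness, against 0.113 and 0.118 CPM in wildtype light and 1.15 and 0.881 CPM in ∆*ypr2* light. The light levels rest on 4 counts in the wildtype and 38 in ∆*ypr2*, a ratio of 8.57 with a 95% counting interval of 3.09 to 33.1. The groups did not overlap, but the call (adjusted p = 0.0087) was lost without any 1 of the 4 light libraries, without either wildtype dark library, with the replicate block and with limma voom.

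The remaining 4 called genes all had higher counts. TR_47424 had 3.72 and 3.43 CPM in wildtype light and 9.09 and 9.39 CPM in ∆*ypr2* light, a difference of 1.35 ± 0.14 (adjusted p = 0.0015). TR_106606, its direct neighbour on the genome, had 3.38 and 4.32 CPM against 8.23 and 10.7 CPM, a difference of 1.29 ± 0.19 (adjusted p = 0.0056). In darkness these 2 genes for unknown proteins also had similar levels, with wildtype means of 41.9 and 42.4 CPM and ∆*ypr2* means of 38.2 and 35.3 CPM. TR_57558 had 4.06 and 3.32 CPM in wildtype light and 8.63 and 8.63 CPM in ∆*ypr2* light (1.21 ± 0.16, adjusted p = 0.0038). The orphan TR_120030 had 7.66 and 6.81 CPM against 14.0 and 15.9 CPM (1.03 ± 0.12, adjusted p = 0.0021). All 4 had no overlap between the strains in light and were lost without either wildtype light library or without the second ∆*ypr2* light library. TR_57558 was lost without the first ∆*ypr2* light library too, and TR_57558 and TR_106606 with limma voom.

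**Figure D2:**
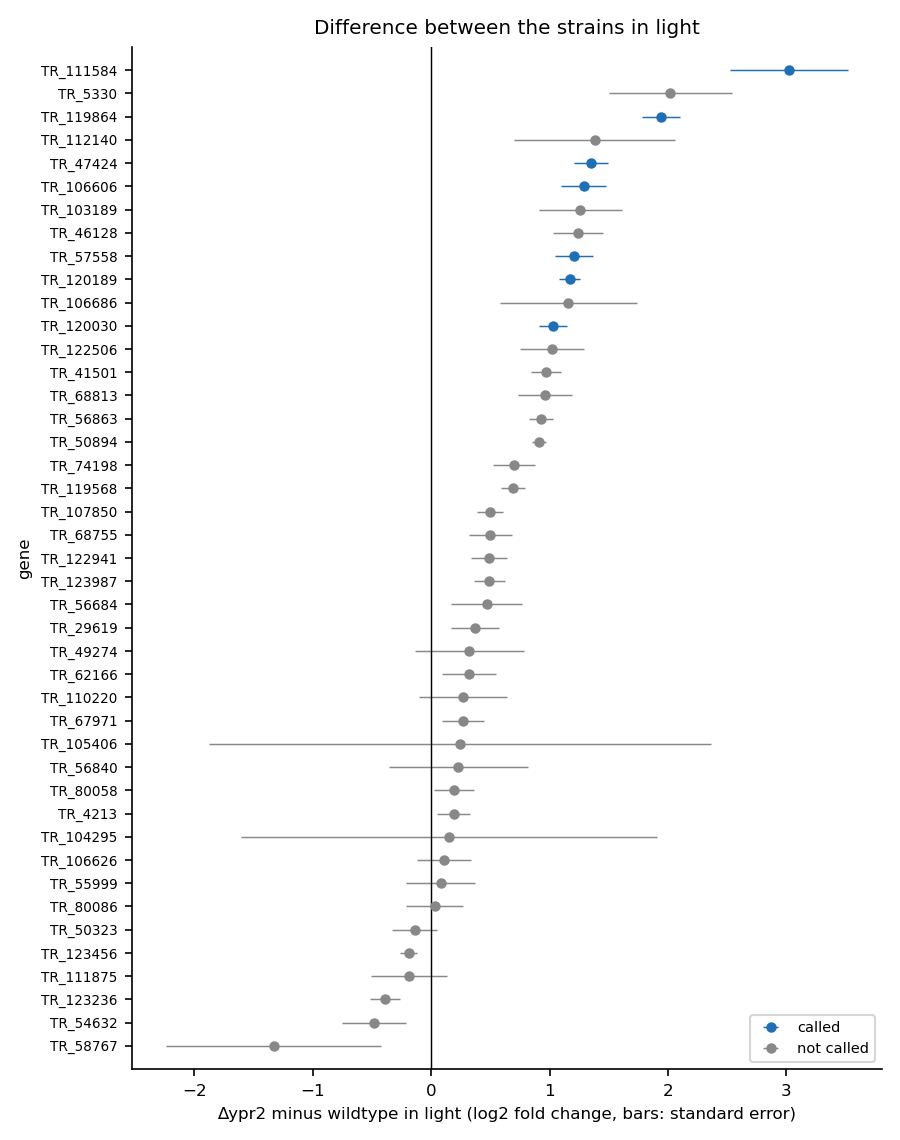
Difference between ∆*ypr2* and the wildtype in light for 43 of the 45 genes, as log2 fold change (edgeR fit to all 8 libraries), ordered by size. Bars are standard errors derived from the F statistic of the test. TR_106164 and TR_110311 are not drawn, since they had 2 and 3 counts in wildtype light. The 7 called genes, in blue, are at 1.03 to 3.02, and 6 genes lie below 0.

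The 38 genes with no call in light had a wide range of fitted differences. Some were larger than those of called genes but rested on few counts or had large errors, as for TR_5330 (2.02 ± 0.52), TR_112140 (1.38 ± 0.68) and TR_58767. TR_50894 (0.91 ± 0.06), TR_56863 (0.93 ± 0.10), TR_41501 (0.97 ± 0.13) and TR_119568 (0.69 ± 0.10) passed an adjusted p under 0.01 in light but not the 2-fold limit. The AAA ATPase TR_46128 was higher in ∆*ypr2* by 1.24 ± 0.21 and narrowly missed the limit of p (adjusted p = 0.011). The HET protein TR_103189 had 0.564 and 0.652 CPM in wildtype light and 1.21 and 1.72 CPM in ∆*ypr2* light, a difference of 1.26 ± 0.35 that was not called (adjusted p = 0.083). Small differences with small errors were found for TR_123456 (-0.19 ± 0.07), TR_4213 (0.19 ± 0.14) and TR_80058 (0.19 ± 0.17). That of TR_123456 was beyond its error (edgeR, unadjusted p = 0.029, adjusted p = 0.21). The median standard error rose as abundance fell. It was 0.16 over 100 CPM in wildtype darkness, 0.21 at 10 to 100 CPM and 0.67 for the 5 genes under 10 CPM. Of these classes 2 of 16, 4 of 24 and 1 of 5 genes were called.

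Other light-lowered genes showed the same direction. Of the 195 genes with the same light limit in the wildtype but a dark ratio under 0.7, 150 had a ratio of ∆*ypr2* to wildtype above 1 in light, with a median of 1.16, and 9 were called higher. Of the 32 with a dark ratio over 1.4, 26 were above 1, with a median of 1.49, and 4 were called higher. The 13 left-out genes that met the limits were all above 1, with a median of 1.70, and 0 were called. All these groups were chosen on the same wildtype light libraries as the 45 genes, and the differences between the groups were not tested. Of all 7639 genes of at least 5 CPM, 4117 were above 1, with a median of 1.01, and 32 (0.419%) were called higher. In the drop itself the left-out genes stood far from the 45, with a median ratio of light to darkness in ∆*ypr2* of 0.00315 against 0.119.

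The third comparison was that of the light effect itself, the log2 change from darkness to light, between the strains. It contains the 3 groups that chose the genes, and a choice for a large drop in the wildtype favours a smaller drop in ∆*ypr2*, so the values are given as a description. In the edgeR fit 14 of the 45 genes passed the limits of a call, all with a smaller drop in ∆*ypr2*. Among all genes tested 5.94% were called in this direction and 8.37% in the opposite one, in which 0 of the 45 were called by edgeR, DESeq2 or limma voom. At an unadjusted p under 0.05 the counts were 27 with a smaller drop in ∆*ypr2* (27.7% of all genes tested) and 0 with a larger one (31.1% of all genes tested) by edgeR. With the genes chosen on 1 replicate and the light effects read on the other, the ratio of the light effects, ∆*ypr2* to wildtype, was above 1 in 48 of 54 genes with a median of 1.75, and in 34 of 44 with a median of 1.30. For the 45 genes read on both replicates the median was 1.63. The share of the dark level kept in light was larger in ∆*ypr2* than in the wildtype in 40 genes and smaller in 5. For this measure the count over all genes was not computed. By the edgeR fit the difference of the light effects was above 0 in 41 of the 45 genes, beside 47.6% of all genes tested. Such a majority is favoured by the choice.

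Besides the 7 genes called in light, the 14 included TR_110311, TR_5330, TR_46128, TR_122506, TR_41501, TR_56863 and TR_122941. TR_46128 had 22.4 and 21.5 CPM in wildtype darkness, 1.75 and 1.24 CPM in wildtype light, 15.4 and 15.5 CPM in ∆*ypr2* darkness and 4.09 and 3.15 CPM in ∆*ypr2* light. It was thus lower without *ypr2* in darkness and higher in light with no overlap in either, and the difference of its light effects was 1.80 ± 0.24. TR_122941 had 180 and 165.5 CPM in wildtype darkness, 8.57 and 7.17 CPM in wildtype light, 133 and 112 CPM in ∆*ypr2* darkness and 10.8 and 11.6 CPM in ∆*ypr2* light, a difference of 1.04 ± 0.17. In 17 of the 45 genes, 9 of them among the 14, both ∆*ypr2* libraries were below both of the wildtype in darkness and above both in light, as in these 2, beside 12.3% of all genes tested. The dark part of this pattern lies within the limits of the choice. The call of TR_122941 was lost without the second library of wildtype light, of ∆*ypr2* light or of ∆*ypr2* darkness and without the first of wildtype darkness, that of TR_122506 without either wildtype light library or the first ∆*ypr2* light library.

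TR_41501 had 40.1 and 36.8 CPM in wildtype darkness and 35.8 and 36.7 CPM in ∆*ypr2* darkness, and 2.76 and 2.55 CPM against 5.24 and 5.29 CPM in light. TR_56863 had 137 and 131.5 CPM in wildtype darkness and 124 and 126.5 CPM in ∆*ypr2* darkness, and 9.13 and 7.11 CPM against 15.6 and 15.8 CPM in light. Of the difference between the light effects, 1.11 ± 0.15 for TR_41501 and 1.08 ± 0.12 for TR_56863, the strains differed by 0.97 and 0.93 in light. The call of TR_56863 was lost without the second wildtype light library. TR_5330 and TR_110311 were rare transcripts. TR_5330 had 6 counts in wildtype light and 28 in ∆*ypr2* light, a ratio of 4.21 with a 95% counting interval of 1.71 to 12.4. TR_110311 had 3 counts and 22, a ratio of 6.62 with an interval of 1.99 to 34.5. Neither was called in light alone, and the call of TR_5330 for the light effects was lost in 11 of the 16 alternatives. That of TR_110311 was lost without either wildtype light library, the second ∆*ypr2* light library or the first wildtype dark library, and that of TR_111584 without the first wildtype light library.

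**Figure D3:**
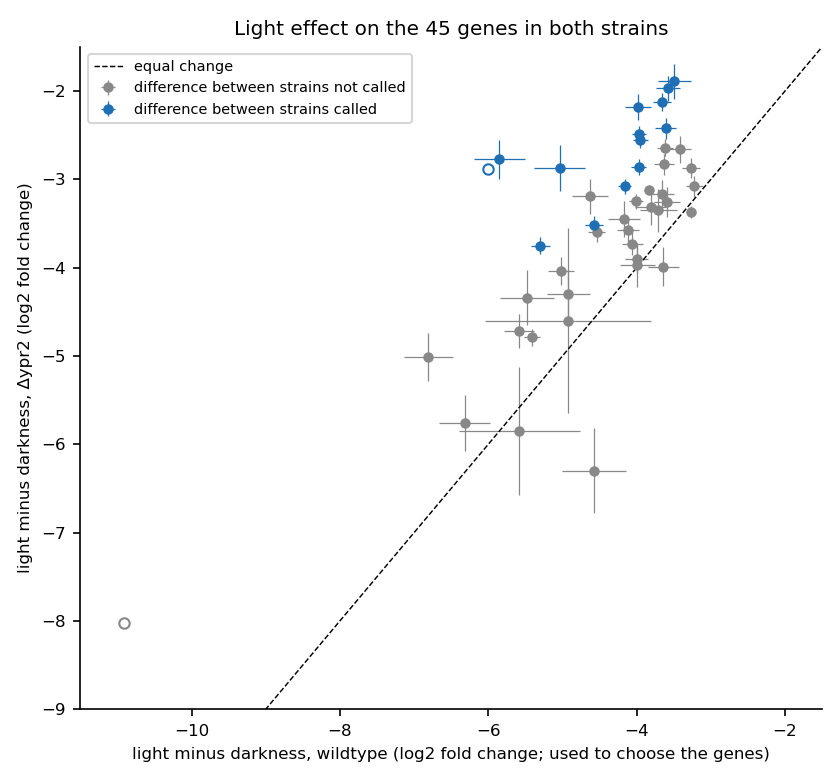
Change from darkness to light in the wildtype (x axis) and in ∆*ypr2* (y axis) for the 45 genes, as log2 fold changes from the edgeR fit. Bars are standard errors derived from the F statistic of the test. Open points without errors are 2 genes with at most 3 counts in wildtype light. The x values chose the genes. On the dashed line both strains changed equally. Most points lie above the line, and the 14 genes with a called difference, in blue, all do.

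The position of the genes was a property the choice did not use. The gene models and the RefSeq table of assembly v2.0 placed all 45 on 21 scaffolds. In gene order, 4 of them stood next to another member, as 2 pairs. TR_56840 and TR_56684 lie on scaffold 3, at positions 61027 to 62004 and 63008 to 64765, 1003 bp apart. TR_56684 had 36.5 and 30.9 CPM in wildtype darkness, 2.26 and 1.78 CPM in wildtype light, 34.1 and 25.1 CPM in ∆*ypr2* darkness and 2.76 and 2.91 CPM in ∆*ypr2* light. It fell in light in both strains like its neighbour, and per kb its wildtype dark level was 19.2 CPM against 158 CPM of TR_56840. TR_47424 and TR_106606 lie on scaffold 7, at positions 1123427 to 1126114 and 1127105 to 1127945, 990 bp apart.

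A further 2 members stood next to a left-out gene. TR_46128, the AAA ATPase, at 1145422 to 1147088 on scaffold 4, is 154 bp from *cel1a*, which encodes an intracellular beta-glucosidase. *cel1a* had mean levels of 2152 CPM in wildtype darkness, 7.94 CPM in wildtype light, 1608 CPM in ∆*ypr2* darkness and 11.3 CPM in ∆*ypr2* light. Its drop in ∆*ypr2* was -7.22 ± 0.29 on the log2 scale against -2.18 ± 0.15 for TR_46128, so the neighbours fell together but to different extents. TR_106164, on scaffold 6, is 2215 bp from TR_3405, annotated as a cellulose response transporter. TR_3405 had means of 11750 CPM in wildtype darkness, 14.6 CPM in wildtype light, 9751 CPM in ∆*ypr2* darkness and 40.1 CPM in ∆*ypr2* light. In ∆*ypr2* the log2 change by light was -8.03 ± 0.55 for TR_106164 and -8.00 ± 0.49 for TR_3405. In the wildtype the changes were -10.91 ± 0.68 and -9.77 ± 0.54. The light values of TR_106164 rest on 0 and 2 counts in the wildtype and 0 and 13 in ∆*ypr2*. Both genes of this pair thus fell steeply in both strains, but on these counts the extents cannot be compared closely.

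The direct neighbours that were not members numbered 86, of which 75 were tested. In wildtype light 32 of them (42.67%) were called lower than in darkness and 6 (8.0%) higher. Of all genes tested 14.4% were called lower and 9.4% higher. In ∆*ypr2* light 35 (46.67%) were called lower and 4 (5.333%) higher, beside 13.3% and 3.81% of all genes. The same 28 neighbours were lower in both strains, and 14 were at least 8-fold lower in the wildtype. Over all genes tested the 5th percentile of the wildtype change was -3.15 on the log2 scale, somewhat more than 8-fold lower. Of the 45 members 26 had at least 1 neighbour that was lower in the wildtype. For the 28 and the 26 the share over all genes was not computed. All neighbours lay more than 100 bp from the member on the annotation, 107 bp at least and 1205.5 bp in the median. The strand of the reads was not used as far as the sources say, and the part of reads that run past the end of a gene was not tested.

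**Figure D4:**
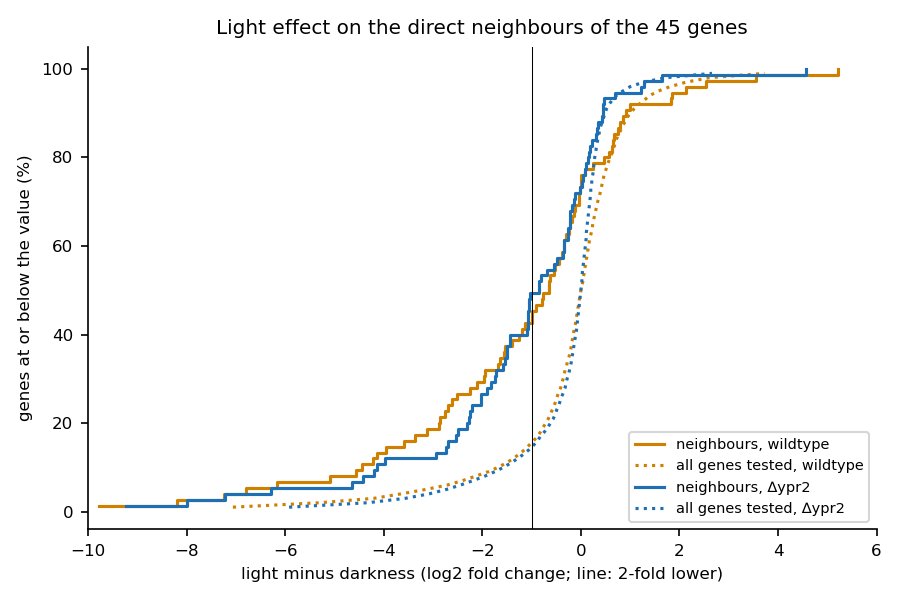
Cumulative share of genes (y axis, percent) by their change from darkness to light (x axis, log2 fold change) for the 75 tested neighbours of the 45 genes (solid lines) and for all 8469 genes tested (dotted lines, percentiles), in the wildtype (orange) and ∆*ypr2* (blue). The vertical line marks a 2-fold lower level. The median of the neighbours was -0.65 in the wildtype and -0.85 in ∆*ypr2*, and that of all genes 0.

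Over the 75 neighbours tested, the median difference between the strains in light was 0.07 on the log2 scale. Of them 2 were called higher in ∆*ypr2* than in the wildtype in light and 0 lower, beside 0.378% and 0.142% of all genes tested. Both stood beside a member with the same direction, a direction that 39 of the 45 members had. These 2 neighbours were picked out after their values were seen. TR_103149, another AAA ATPase by annotation, is 571 bp from TR_119864 and had means of 219 CPM in wildtype darkness, 7.02 CPM in wildtype light, 422 CPM in ∆*ypr2* darkness and 28.3 CPM in ∆*ypr2* light. Its difference in light was 2.0 ± 0.11 (adjusted p = 3.3e-05), beside 1.94 ± 0.16 for TR_119864. It was higher in ∆*ypr2* in darkness too. TR_110740 is 1220 bp from TR_5330, with a difference in light of 1.63 ± 0.21 (adjusted p = 0.0029) beside 2.02 ± 0.52.

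Not every neighbour went the same way. TR_74198 had 66.5 and 61.0 CPM in wildtype darkness, 1.80 and 1.42 CPM in wildtype light, 71.5 and 68.7 CPM in ∆*ypr2* darkness and 2.48 and 2.81 CPM in ∆*ypr2* light. Next to it, *lxr1*, for an enzyme annotated as mannitol dehydrogenase or L-xylulose reductase, had means of 51.2 CPM in wildtype darkness and 655 CPM in wildtype light, a change of 3.56 ± 0.10 in the opposite direction. In ∆*ypr2* *lxr1* stood at 414 CPM in darkness and 586 CPM in light, while TR_74198 kept its drop of -4.79 ± 0.10.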

How the data were processed

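Single reads (HiSeq2000) were aligned by the authors with Bowtie2, handled with SAMtools and bedtools, and estimated per annotated transcript with RSEM. For none of these tools is a version given in the sources used here. The deposited values are called FPKM in the sources but are expected counts, unscaled and without pooling of replicates (library sums of 16.88 to 22.94 Mio). All value columns were matched to a sample by its label.

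CPM were computed from column sums. For the tests, expected counts were rounded and fitted with edgeR 4.0.16 (quasi-likelihood F test, R 4.3.3, two-sided, TMM, group means over all 8 libraries, 4 residual degrees of freedom). Testing required 0.5 CPM or more in 2 libraries (8469 genes tested, 674 not). Calls required a 2-fold change or more and an adjusted p (Benjamini-Hochberg, over all genes tested) under 0.01. All adjusted p are from edgeR unless another tool is named. Values after ± are standard errors derived from the edgeR test, as the size of the log2 fold change divided by the square root of F. For rare transcripts they are rough and no direct measure of precision. The common biological coefficient of variation was 0.066. The p values rest on the spread between 2 cultures a group, which the fit moderates for each gene with that of all genes tested. The procedure was tested on simulated data for the light effect in ∆*ypr2* only, with changes only in genes that were not rare in ∆*ypr2* darkness. It was not tested this way for differences between the strains or for rare transcripts.

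Members, lists and tests were chosen with earlier results of these data known. Named were *ypr2*, the 20 most abundant members, called members, list members, those at the limits of the choice, neighbouring members and the 5 smallest and 5 largest ratios of light to darkness in ∆*ypr2*. Of the 45 members 23 had a fractional count, which RSEM gives to reads shared between transcripts, in some library (51.11%, all genes 62.33%). Gene positions and spans came from RefSeq, assembly v2.0, which held 9115 of the 9143 IDs and all 45 members. Promoter motifs and protein lengths were not analysed here. The columns of the supplement with the authors' own fold changes and p values were not used.

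Alternatives were RLE, upper quartile or total count scaling, no filter on low counts, DESeq2 1.42.0, limma voom 3.58.1, only the 4 libraries compared, a replicate block, an adjusted p of 0.05, leaving out each library, and other limits for the choice. The choice on 1 replicate (for the strains in light and for the light effects) and the alternatives for the neighbours were added after seeing the data.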

Additional observations from a re-analysis of the deposited data

Results flagged for a closer look

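In 14 of the 45 genes the change from darkness to light passed the limits of a call for a difference between ∆*ypr2* and the wildtype (edgeR interaction term). All 14 had a smaller drop in ∆*ypr2*. Of all genes tested 5.94% were called in this direction and 8.37% in the opposite one. The 45 genes had been chosen on 3 of the 4 groups in that term, so the values are a description and no independent finding. The difference in log2 change, ∆*ypr2* minus wildtype, was 3.12 for TR_110311, 3.08 for TR_111584 and 2.17 for TR_5330, all of which had at most 6 counts in the 2 wildtype light libraries together. It was 1.8 for TR_46128, 1.61 for TR_106606, 1.60 for TR_122506, 1.55 for TR_119864, 1.54 for TR_47424, 1.49 for TR_120189 and 1.4 for TR_120030. TR_57558 (1.19), TR_41501 (1.11), TR_56863 (1.08) and TR_122941 (1.04) were close to the 2-fold limit. With 2 samples a group no single library could be tested as an outlier.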

How the results depend on the processing

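All 45 genes were lower in light in ∆*ypr2* in each alternative tried, with 44 or 45 called, and the exception was TR_105406. The number called higher in ∆*ypr2* in light, 7, fell to 4 with limma voom, ranged from 2 to 8 when single libraries were left out and lay between 6 and 9 otherwise. The number with a called difference of the light effects, 14, ranged from 10 to 20 when single libraries were left out (20 without the first ∆*ypr2* dark library) and from 13 to 15 otherwise. No member changed direction in a comparison it was called in. A library left alone in its group was assumed to vary like the others. The number of genes chosen, 45, was 107 with a light limit of 4-fold, 11 with 16-fold and 102 with dark limits of 0.5 to 2, ranged from 36 to 55 when single libraries were left out (31 of the 36 were members) and was 30 to 51 otherwise. Total count scaling moved the median of all genes by 0.12 on the log2 scale between light and darkness in the wildtype and changed no direction of a light effect. The median ratio of the light effects, 1.63, was 1.75 and 1.30 with the choice on 1 replicate, an alternative chosen after seeing the data. The count of neighbours lower in wildtype light, 32, ranged from 30 to 34.

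The labels do not say whether libraries of the same replicate number were run together, and the main fit did not pair them. The deviations of same-numbered libraries correlated between -0.11 and 0.12, which cannot decide this. With the replicate block 45 genes were called lower in light in ∆*ypr2*, 6 differed between the strains in light and 13 had a called difference of the light effects.

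Depth limits the rare transcripts, since 11 of the 45 genes were under 1 CPM in wildtype light and 7 in ∆*ypr2* light. Motif and protein length results were not run.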
